A study of Drosophila melanogaster with 36 samples.

Results

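Metallothioneins and the machinery of copper uptake were followed through 5 genes of Drosophila melanogaster, namely the metallothionein genes MtnA and MtnB, the copper importer genes Ctr1A and Ctr1B, and MTF-1. They are 5 of 10844 genes that the array measured with a probe set of 1 gene symbol, and each gene was read through its probe set of highest mean. The set was chosen by the changes of MtnA and Ctr1B from untreated flies to the later times, which were already known. Those values of both genes are given as a description with no p-value.

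Metallothioneins are small cysteine-rich proteins that bind copper, zinc and cadmium ions and keep them from harming the cell. In flies their genes are switched on by MTF-1, a zinc finger transcription factor that binds metal response elements in promoters when metal is plentiful. Ctr1A and Ctr1B carry copper into cells across the plasma membrane. Ctr1A is the importer most fly cells use, while Ctr1B is known from the larval gut, where its transcript is made under copper shortage, also through MTF-1, and falls when copper is in excess.

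RNA was taken from entire adult females, either of a nonselected line or of one selected for heat resistance. Flies of each line were untreated or were sampled 0.25, 1, 2, 4, 8, 16, 32 or 64 h after 1 h at 36 °C, and there were 2 bioreplicates in each of 18 groups, 1 array each and 36 arrays in all. The labels do not say how many flies were pooled, how many populations were selected, or what the bioreplicates shared. Untreated flies were not sampled alongside the later times, so heat, age and time of day cannot be told apart in any comparison with untreated flies. In RNA of whole flies, fewer cells of a type and less RNA per cell cannot be told apart either.

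Values are intensities on the log2 scale, so that 1 unit is a doubling. They compare a probe set between arrays and do not rank genes by abundance. Changes over time are means of 4 arrays (both lines) minus the 4 untreated arrays, and the late response is the mean of 8, 16, 32 and 64 h minus untreated. Adjusted p-values are limma's with Benjamini-Hochberg adjustment over the 8199 probe sets that reached 5 log2 units as the mean of their 4 highest arrays, and a gene is called when its adjusted p is under 0.05. All 5 genes passed that filter. Ctr1B passed through its early and untreated arrays, so a lower level at late times is partly a condition of its being tested.

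Heat treatment was visible in the arrays, since the summed signal of 5 heat shock genes was 13.60 to 14.05 log2 units untreated and 15.97 to 16.38 at 0.25 h. The selected 32 h replicate 2 array was highest for 14 of 16 male reproductive genes, with a median of 6.38 log2 units against 3.13 to 3.68 in the other 35 arrays, against the label of female flies. The replicate numbers also stood apart in the 3' to 5' signal of control transcripts, a measure of RNA or labelling quality. On the log2 scale the mean ratio of the 18 replicate 1 arrays was 2.28 with an SD of 0.20, and that of the 18 replicate 2 arrays was 1.55 with an SD of 0.14. Results are therefore also given within each replicate number, which holds every line and time.

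MtnA, the metallothionein known mainly for its response to copper, was high in every array from 8 h on. Untreated arrays stood at 10.23 and 11.37 log2 units in nonselected replicates 1 and 2, and at 10.22 and 9.87 in selected replicates 1 and 2. In the same order, the 8 h arrays stood at 13.52, 12.82, 13.10 and 12.45. All 4 of the 8 h arrays lay above all 4 untreated arrays. At 16 h the arrays read 13.70, 13.12, 13.78 and 12.19 log2 units, at 32 h 13.71, 12.67, 13.09 and 13.39, and at 64 h 13.70, 12.70, 13.82 and 12.82. The means were 12.97 ± 0.45, 13.20 ± 0.73, 13.21 ± 0.44 and 13.26 ± 0.58 (SD, n = 4 each) at 8, 16, 32 and 64 h, a plateau on which neighbouring times did not differ beyond their spread.

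Before the plateau, MtnA was scattered. At 0.25 h the arrays stood at 9.52 and 9.15 log2 units (nonselected replicates 1 and 2) and 10.54 and 8.98 (selected replicates 1 and 2), which made 9.55 ± 0.70 (SD, n = 4) the lowest mean of the course, with values overlapping the untreated ones. At 4 h nonselected replicate 1 had already reached 13.29 log2 units, while the other 3 arrays stood at 10.92, 11.37 and 10.54. The mean change at 4 h was 1.11 log2 units, and it was 2.11 over replicate 1 arrays and 0.11 over replicate 2 arrays. Without nonselected 4 h replicate 1 it was 0.52, and without nonselected 4 h replicate 2 it was 1.70. Over the late times MtnA was 2.74 log2 units above untreated, which is 6.67-fold. Within replicate 1 and replicate 2 arrays the late values were 3.33 and 2.15.

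**Figure D1:**
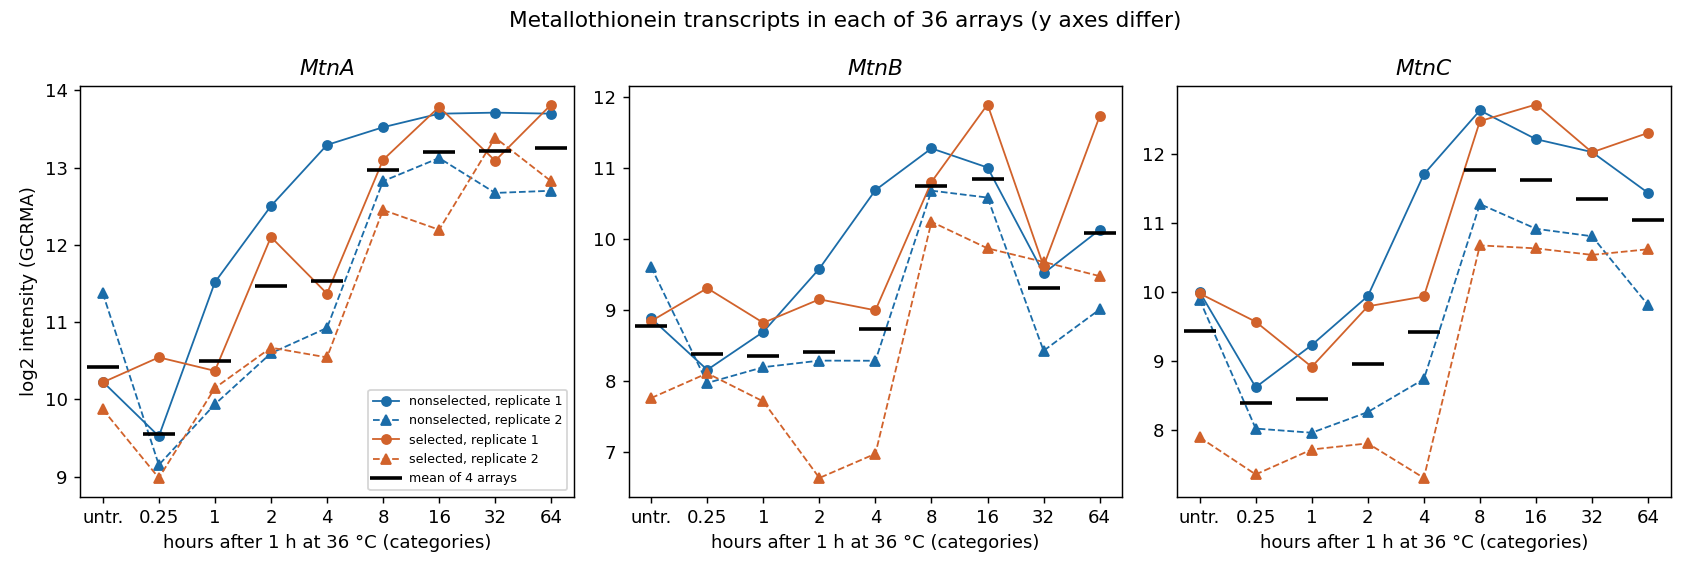
Log2 intensity (y axes, a separate scale for each gene) of MtnA, MtnB and MtnC in each array against untreated flies and the sampled times (x axis, evenly spaced steps and not to scale in hours). Each point is 1 array, coloured by line, with the replicate numbers marked apart and lines joining arrays of 1 line and replicate number as a guide only, and black bars are means of 4 arrays; MtnA stood at 12.19 or more in every array from 8 h on.

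MtnB, the metallothionein known mainly for its response to cadmium, had a less sustained course. Untreated arrays stood at 8.88 and 9.61 log2 units (nonselected replicates 1 and 2) and 8.85 and 7.76 (selected replicates 1 and 2). In that order the 8 h arrays stood at 11.28, 10.68, 10.81 and 10.24 and the 16 h arrays at 11.01, 10.59, 11.90 and 9.87. Each of these 8 arrays lay above every untreated array. At 32 h the arrays stood at 9.52, 8.43, 9.62 and 9.68, all below every 16 h array and overlapping the untreated ones, and at 64 h they spread from 9.01 to 11.73.

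The late mean of MtnB was 1.47 log2 units above untreated (SE 0.51, 95% interval 0.41 to 2.53), which did not pass the test (limma adjusted p = 0.116, with 4.31% of the 8199 probe sets called). The single times did not pass either, with limma adjusted p = 0.204 at 8 h, 0.109 at 16 h, 0.748 at 32 h and 0.367 at 64 h. Over all times together, MtnB did change by limma's F-test (adjusted p = 0.0159, against 13.2% of probe sets called), and the call held whichever array was left out (limma adjusted p = 0.00631 to 0.0413).

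The untreated arrays differed widely among themselves. Among them, nonselected replicate 2 held the highest MtnA and MtnB and the lowest Ctr1B. When late times were set against 0.25, 1 and 2 h instead, a comparison added after the values were seen, MtnB rose by 1.86 log2 units (SE 0.35, 95% interval 1.14 to 2.58, limma adjusted p = 0.000299). That comparison called 35.8% of all probe sets, so a call in it is common. In the 4 sets of arrays that share a line and a replicate number, MtnB differed between late and early times by 1.52 to 2.33 log2 units, and from its own untreated array by 0.07 to 2.17. For MtnA the same ranges were 2.44 to 2.93 and 1.46 to 3.43.

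**Figure D2:**
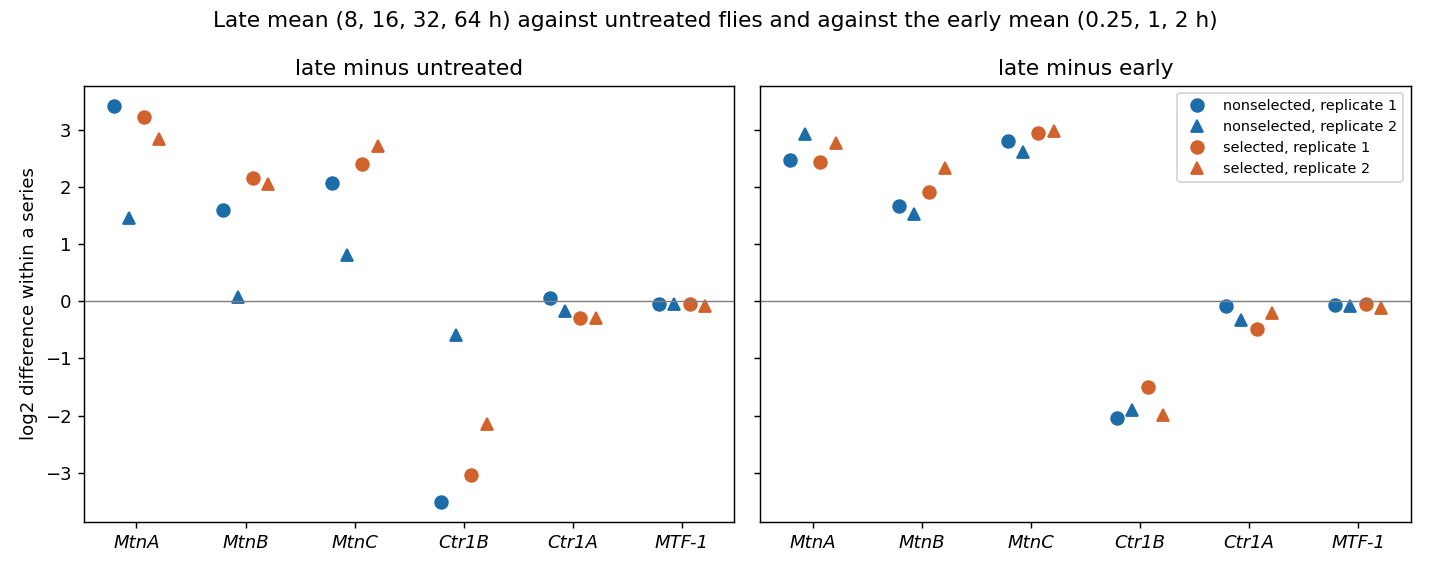
Difference in log2 intensity (axis) of the late times (8 to 64 h) from the untreated array and from the early times (0.25 to 2 h), for arrays that share a line and a replicate number. Each point is 1 of the 4 such sets; against untreated, Ctr1B ran from -3.52 to -0.59, and against early times from -2.04 to -1.50.

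MtnC, another metallothionein on the array, is listed here as a relative of both genes and not as one of the 5. RefSeq's table holds 6 metallothionein genes, and MtnD, MtnE and MtnF had no probe set of 1 symbol. MtnB and MtnC have 5 protein-coding genes between them on the chromosome, while MtnA is far away. MtnC stood at 9.44 ± 1.03 log2 units (SD, n = 4) untreated, 11.76 ± 0.95 at 8 h and 11.04 ± 1.07 at 64 h. Its late change of 2.00 log2 units (SE 0.64) missed the threshold (limma adjusted p = 0.0869). By the F-test over time, which called 13.2% of probe sets, MtnC changed (limma adjusted p = 0.0072). Against early times it rose by 2.85 log2 units (limma adjusted p = 3.82e-05). That comparison was added after the values were seen and called 35.8% of all probe sets. Probe sequences were not used here, so whether the probe sets of related metallothioneins also detect one another was not tested.

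Replicate number moved with all 3 metallothioneins, with Ctr1A and with MTF-1. The replicate 1 array was the higher one in 16 of 18 groups for MtnA, by 0.87 log2 units on average, in 16 of 18 for MtnB, by 1.09, and in 18 of 18 for MtnC, by 1.63. For Ctr1A it was the lower one in 18 of 18 groups, by 0.51. For MTF-1 it was the higher one in 16 of 18 groups, by 0.15, but in only 5 of 18 for a second, dimmer probe set of that gene. For Ctr1B it was higher in 10 of 18 groups. Over the 18 groups, these differences were set beside the difference in the control transcripts' 3' to 5' ratio, as a description. There r was 0.09 for MtnA, 0.20 for MtnB and 0.19 for MtnC. It was -0.54 for Ctr1A, -0.46 for Ctr1B and 0.44 for MTF-1. With replicate number as a block in the fit, limma also called MtnB at 8 h (adjusted p = 0.0113), at 16 h (adjusted p = 0.00449) and over the late times (adjusted p = 0.00699), and MtnC over the late times (adjusted p = 4.13e-05). Within replicate 1 and replicate 2 arrays the late values were 1.88 and 1.06 log2 units for MtnB and 2.24 and 1.77 for MtnC. The labels do not say what a replicate number shares across groups.

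Ctr1B, the inducible copper importer, took the opposite course to MtnA. Its untreated arrays stood at 7.94 and 4.92 log2 units (nonselected replicates 1 and 2) and 7.66 and 6.81 (selected replicates 1 and 2). At 4 h they stood at 5.57, 5.66, 6.76 and 6.62 in that order, and at 8 h at 4.09, 5.07, 5.13 and 5.21. Thus 3 of 4 untreated arrays lay well above every 8 h array, and nonselected replicate 2 did not. The 32 h arrays stood at 4.38, 3.99, 3.88 and 4.71 and the 64 h arrays at 4.51, 4.08, 4.69 and 3.74, all below every untreated array.

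Means of Ctr1B were 6.83 ± 1.36 log2 units (SD, n = 4) untreated, 6.15 ± 0.62 at 4 h, 4.87 ± 0.53 at 8 h and 4.26 ± 0.43 at 64 h. The largest step between neighbouring sampled times fell between 4 and 8 h. From 16 h on every array lay under an intensity of 32, where the signal of a dim probe set is poorly measured. With such arrays set to 32, the mean of Ctr1B was 3.61-fold lower than untreated at 16, 32 and 64 h, and 3.36-fold lower at 8 h. Nonselected untreated replicate 2 also lay under 32, so these folds compare floored means and are not lower bounds. They rest on the other untreated arrays, since nonselected replicate 2 stood at 4.92 log2 units untreated and 5.07 at 8 h. Without the floor the late difference averaged -2.32 log2 units, a value that rests on dim arrays and also on single untreated ones. It was -3.08 without nonselected untreated replicate 2 and -1.57 without nonselected untreated replicate 1, and it was -3.28 and -1.37 within replicate 1 and replicate 2 arrays.

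Ctr1A, the constitutive importer, spanned a narrower range than Ctr1B. Over 36 arrays it ran from 7.09 to 8.29 log2 units with a median of 7.73. Its means were 7.79 ± 0.36 untreated, 7.98 ± 0.31 at 1 h and 7.57 ± 0.38 at 64 h (SD, n = 4 each), and no neighbouring times in the order of levels differed beyond their spread. The late difference was -0.17 log2 units (95% interval -0.59 to 0.25, limma adjusted p = 0.728), and limma's F-test over time gave adjusted p = 1.00. A fall by as much as 0.59 log2 units lies within that interval. With replicate number as a block, Ctr1A was called by the F-test over time (limma adjusted p = 0.0185), where 2064 of 8199 probe sets were called. It was also called for late against early times (-0.27 log2 units, limma adjusted p = 0.000218, against 0.124 without the block). That comparison called 35.8% of probe sets even without the block. A test without the block therefore does not show Ctr1A to be steady. The remaining importer gene, Ctr1C, known from the male germline, stood at 2.40 to 2.88 log2 units in all 36 arrays, below the filter.

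MTF-1, known as a regulator of metallothionein genes and of Ctr1B, hardly moved in transcript level. It ran from 9.14 to 9.76 log2 units over 36 arrays, with 9.52 ± 0.10 untreated and 9.55 ± 0.12 at 8 h (SD, n = 4 each), the time at which all 4 MtnA arrays first lay above the untreated ones. The late difference was -0.06 log2 units (95% interval -0.23 to 0.12, limma adjusted p = 0.799), and the F-test over time gave limma adjusted p = 0.812. A dimmer probe set of MTF-1, at 5.59 to 6.42 log2 units, gave a late difference of -0.03. The arrays measure transcript and do not report on MTF-1 protein or its activity.

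**Figure D3:**
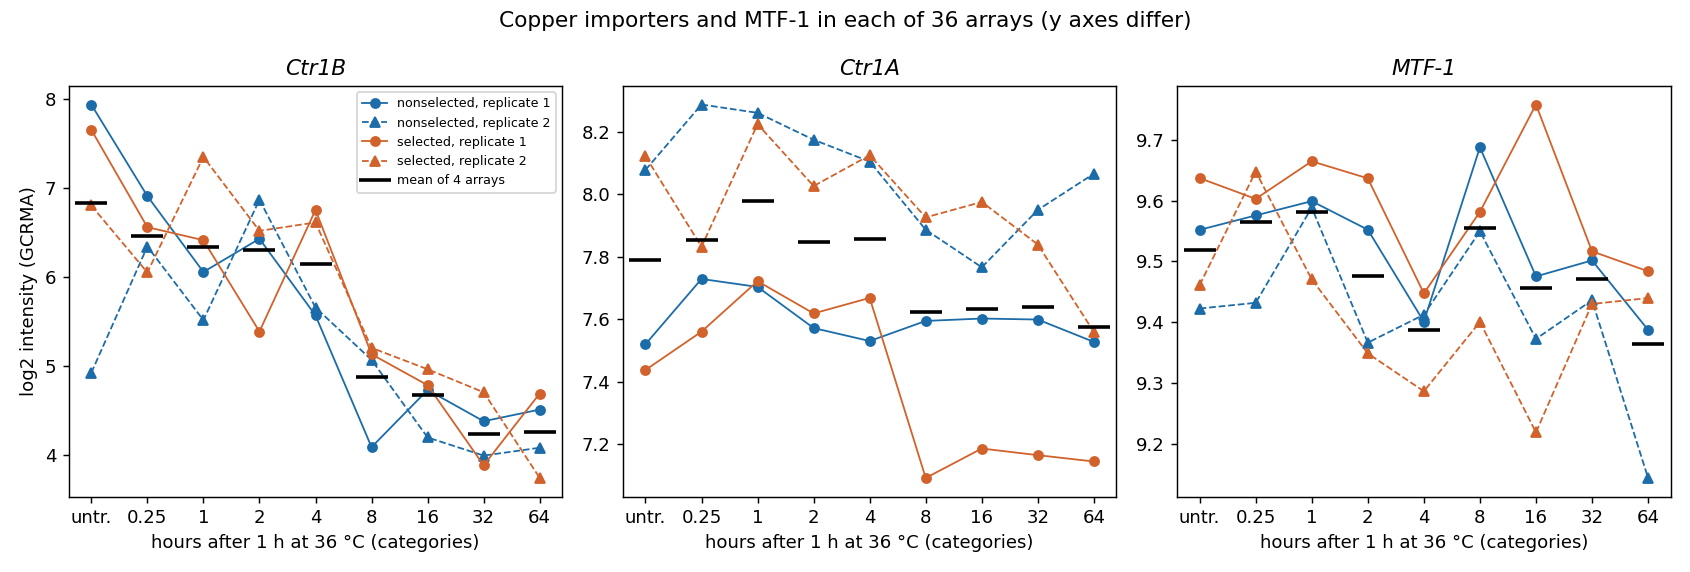
Log2 intensity (y axes, a separate scale for each gene) of Ctr1B, Ctr1A and MTF-1 in each of the 36 arrays against untreated flies and the sampled times (x axis, evenly spaced steps). Each point is 1 array, coloured by line and marked by replicate number, with lines as a guide only and black bars for means of 4 arrays; Ctr1B lay under 5 log2 units in every array from 16 h on, while Ctr1A and MTF-1 kept to 7.09 to 8.29 and 9.14 to 9.76.

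Of the genes open to a test, neither MtnB, Ctr1A nor MTF-1 was called at any single late time in the fit without a replicate block. The shares of all probe sets called in that fit were 1.06% at 8 h, 2.39% at 16 h, 1.10% at 32 h and 3.57% at 64 h. Over the early times, which called 1.55% of probe sets there, none of these 3 genes was called. With replicate number as a block, MtnB was called at 8 h (limma adjusted p = 0.0113) and at 16 h (limma adjusted p = 0.00449). The block called 185 probe sets at 8 h and 399 at 16 h. Leaving out the selected 32 h replicate 2 array with male transcripts changed the 32 h difference of MtnA to 2.72 log2 units, of MtnB to 0.52 and of Ctr1B to -2.80, from 2.79, 0.54 and -2.59.

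The wider metal handling list holds 38 genes for metallothioneins, copper chaperones, copper enzymes and transporters of copper, zinc and iron, of which 32 had a probe set and 27 were tested. Among the 22 tested genes other than the 5, the zinc transporter genes Zip48C and Zip89B rose at late times and none fell, where 4.31% of all probe sets were called. Zip48C rose by 0.30 log2 units (limma adjusted p = 0.0246) and Zip89B by 0.45 (limma adjusted p = 0.0322), both smaller than the MtnA difference. Each call was lost without nonselected untreated replicate 2 or either selected untreated replicate (limma adjusted p up to 0.229 for Zip48C and 0.217 for Zip89B), and that of Zip89B also without nonselected untreated replicate 1 or selected 64 h replicate 1. The median late change of the 22 genes was 0.00 log2 units, as it was over all probe sets (-0.00). At 64 h only Zip48C of the 22 was called, at 0.41 log2 units (limma adjusted p = 0.0158), a call lost without any of 3 arrays (selected untreated replicate 1, selected 64 h replicate 1 and nonselected untreated replicate 2).

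Against the early times, 8 of the 22 genes were called, 5 higher and 3 lower, near the 35.8% of all probe sets. Ccs, the chaperone that loads copper into superoxide dismutase, fell by 0.62 log2 units (limma adjusted p = 2.73e-06). ATP7, the copper pump that moves copper into the secretory pathway and out of cells, fell by 0.15 (limma adjusted p = 0.0415), and the transporter gene Zip99C fell by 0.19 (limma adjusted p = 0.0315), calls lost with 16 and 8 of the 36 arrays left out in turn. ZnT41F, a zinc transporter gene, rose by 0.31 log2 units (limma adjusted p = 0.000722) and Catsup by 0.24 (limma adjusted p = 0.00132). Atox1, a chaperone that hands copper to ATP7, differed by 0.09 log2 units (95% interval -0.05 to 0.23) and did not pass.

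**Figure D4:**
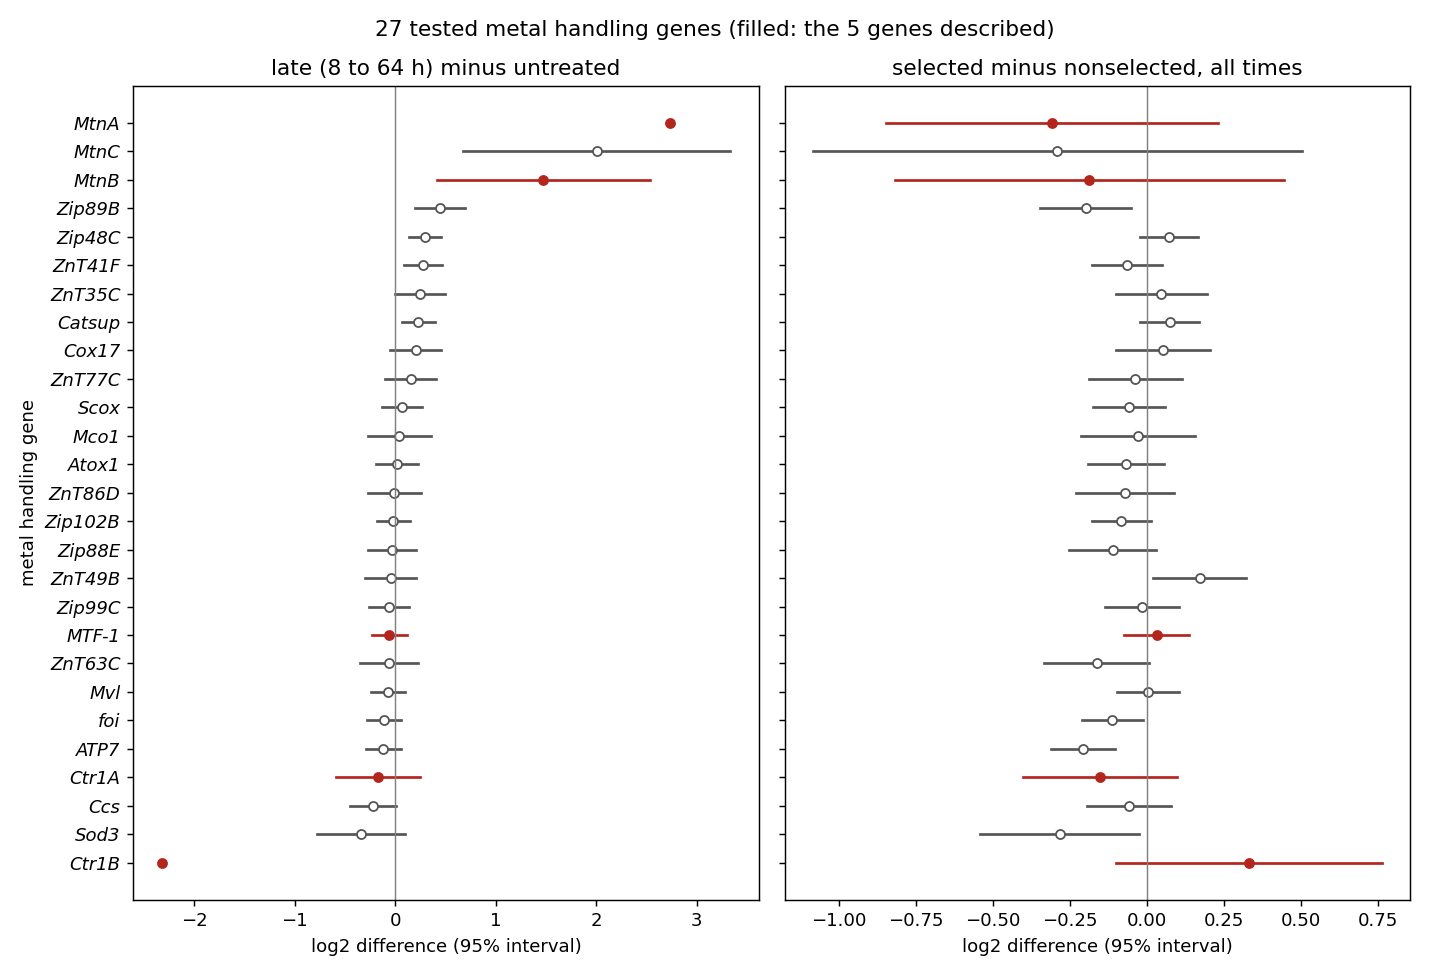
Log2 difference (x axes) of the 27 tested metal handling genes (rows) for late times minus untreated and for selected minus nonselected line. Points are fitted differences and bars are 95% intervals, left out in the late panel for MtnA and Ctr1B, whose late values chose the set; Ctr1B's late point at -2.32 rests on arrays under an intensity of 32, and MtnA lies at 2.74 and MtnC at 2.00.

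Whether these genes differed between the selected and nonselected lines was asked by the line difference, which did not enter the choice of genes. The arrays of a line are untreated flies and sampled times with 2 bioreplicates each, and are not known to be separately selected populations. Whether selection itself, rather than another difference between the lines, moved a gene was therefore not tested. Over all times, 18 arrays a line, none of the 5 genes differed past the threshold, while 12.2% of probe sets did. Selected minus nonselected, MtnA differed by -0.31 log2 units (95% interval -0.85 to 0.23, limma adjusted p = 0.430) and Ctr1B by 0.33 (95% interval -0.10 to 0.76, limma adjusted p = 0.287). The differences were -0.19 for MtnB (95% interval -0.82 to 0.44), -0.15 for Ctr1A (95% interval -0.40 to 0.10) and 0.03 for MTF-1 (95% interval -0.07 to 0.14). The intervals were narrowest for MTF-1 and widest for MtnA and MtnB. With replicate number as a block, the line difference of Ctr1A was called (-0.15 log2 units, limma adjusted p = 0.0169). That fit called 2349 probe sets for the line difference, against 1000 without the block. For Ctr1B, leaving out nonselected untreated replicate 1 gave 0.50 log2 units and a call (limma adjusted p = 0.0324).

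ATP7 was the one of 27 tested metal handling genes called for the line difference over all times, which called 12.2% of all probe sets. It was lower by 0.21 log2 units in the selected line (value -0.21, SE 0.05, limma adjusted p = 0.0106). The other genes are not thereby shown to be alike, since 5 metal handling genes were called with the replicate block and 2 with quantile normalization. The block called 2349 of 8199 probe sets for the line difference, against 1000 without it, so a call with the block is common. The count of 5 therefore does not set the metal handling genes apart from other genes. In untreated flies alone, 0.00% of probe sets were called, with 148 at an unadjusted limma p under 0.05. For the line difference of the late response the share was 0.00% (29 probe sets at an unadjusted p under 0.05), and for the line by time interaction 0.00% (36 probe sets). The counts of 148, 29 and 36 are fewer than a threshold of 0.05 would pass among 8199 probe sets with no difference. The absence of calls is therefore weak evidence that the lines were alike. The late response differed between lines, selected minus nonselected, by 0.59 log2 units for MtnA, 1.28 for MtnB and -0.54 for Ctr1B, none of them called. No difference of time course between the lines was detectable for the 5 genes with 2 arrays a group in a fit that left replicate number out.

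Other transcripts followed similar courses. Likeness was measured as Pearson's r over the 18 group means against 7310 or 7311 tested probe sets of 1 symbol, each mean holding 2 arrays shared by both genes, and it is a description. The closest probe sets to MtnA were those of CG6426 (r = 0.94), peb, a zinc finger transcription factor (0.93), and CG32687 (0.92). MtnB was closest to MtnC (0.91), then to CG9331 and Ugt49B1, a glucuronosyltransferase gene (0.89 each). Ctr1A was closest to cad, the homeobox gene caudal (0.95), CG9609 (0.95) and Prim2, a DNA primase subunit gene (0.94). Ctr1B was closest to Gem3, a DEAD-box helicase gene (0.90), GstE6, a glutathione transferase gene (0.90), and CG7744 (0.88). MTF-1 had looser neighbours, Sbf and CG42254 at 0.76 and CG42296 at 0.74.

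Across the same 18 group means MtnA and Ctr1B had r = -0.91 and MtnA and MtnB 0.80, again a description of genes measured on shared arrays. The late changes of MtnA and Ctr1B chose the set, so a negative r between them was built in and is no support for opposed courses. Ctr1A and MTF-1 were weakly related (r = 0.07). When the likeness was measured over the 36 arrays instead, MtnB kept 2 of its 3 closest genes, Ctr1A kept 1, and MtnA, Ctr1B and MTF-1 kept 0. By Spearman's rank correlation over the 18 group means, MtnB and MTF-1 kept 2, Ctr1A and Ctr1B kept 1, and MtnA kept 0. The genes named therefore depend on averaging the replicates and on the measure of likeness.

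Marker lists of other cells and of time were also summed in each array. The summed signal of 13 eggshell genes was 16.35 to 16.80 log2 units in untreated arrays, 12.46 to 16.38 at 32 h and 12.07 to 14.38 at 64 h, so that it overlapped the untreated range at 32 h and not at 64 h. It also lay below that range at 0.25 h (15.30 to 16.31), 8 h (14.10 to 15.67) and 16 h (12.83 to 15.05). The summed signal of 11 midgut genes was 15.25 to 15.71 untreated and 14.87 to 15.32 at 64 h, which overlap. Midgut signal lay below the untreated range at 2 h (14.755 to 15.08), 4 h (14.57 to 15.06) and 8 h (14.82 to 15.18). The summed signal of 7 clock genes was 10.54 to 11.04 untreated and 11.13 to 11.81 at 64 h, which do not overlap. Clock signal also lay above the untreated range at 8 h (11.24 to 11.85), 16 h (11.05 to 11.59) and 32 h (11.21 to 12.02). No list had a member at 0. Their part in the values of the metal genes was not tested.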

How the data were processed

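The authors deposited linear intensities. Per the submitters' processing notes they used GCRMA (version not given), which removes background, normalizes arrays and summarises each probe set. The deposited values were turned to log2 with no pseudocount, and 44 controls among 14010 probe sets were dropped. Gene names came from the platform annotation in GEO, updated by Entrez ID with RefSeq's Release 6 plus ISO1 MT table (12394 of 12443 symbols matched). A limma 3.58.1 model (R 4.3.3) with 18 groups and 18 residual degrees of freedom was fitted to 8199 probe sets and adjusted over all of them. It was tested on simulated data.

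The members and lists were chosen with earlier results of these data known. The 5 genes are named throughout, list genes when past the threshold (copper genes always), and the 3 closest genes by r. 0 value columns were left unused. Promoter and protein sequences were not used here. Alternatives were other filters, a pseudocount, quantile normalization, a floor at 32, a replicate block, and leaving out each array. Array number limits the precision. Where nothing says that bioreplicates came from separate cultures or cages, p-values measure only the spread between these samples.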

Additional observations from a re-analysis of the deposited data

Results flagged for a closer look

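4 of 54 sets of 4 arrays at 1 time, over MtnA, MtnB, MtnC, Ctr1A, Ctr1B and MTF-1, held an array that stood apart from the other 3, where chance gives about 5% of sets. MtnB at 0.25 h was 9.31 log2 units in selected replicate 1, with the nearest array at 8.16. MtnB at 32 h was 8.43 in nonselected replicate 2, with the nearest at 9.52. Ctr1B at 8 h was 4.09 in nonselected replicate 1, with the nearest at 5.07, and the lower array, at an intensity of 17.0, lies under the floor of 32. MtnC in untreated flies was 7.89 in selected replicate 2, with the nearest at 9.88. No cause was tested.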

How the results depend on the processing

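Of 4588 comparisons with an alternative setting, 4335 were marked unchanged and 49 reversed. For values with a p-value, unchanged meant the same direction and call. For values without a p-value it meant the same direction and a shift under the residual SD. Counts of called genes or probe sets were marked unchanged within a set ratio, so the total is not a number of calls kept. Replicate numbers were checked as pairs over 153 pairs of groups (r -0.43 to 0.78, median 0.33, 121 over 0.1). Of 36 arrays, 34 were nearer their own number. The main fit left replicate number out, so spread between the numbers counts as residual spread in its tests. With the replicate block, the late change of MtnB was 1.47 (adjusted p = 0.00699), the line difference of Ctr1A -0.15 (adjusted p = 0.0169), and 8 metal handling genes were called late and 5 for line, with 744, 2349, 2064 and 615 probe sets called for late, line, change over time and 64 h (353, 1000, 1086 and 293 without). Of 61 results of the 5 genes and MtnC, 54 were marked unchanged. These include the time values of MtnA and Ctr1B, which carry no call and which the block cannot move. Single times of MtnC, Ctr1A and MTF-1 were not among the 61. Within the 61, the other calls gained were MtnB at 8 h (limma adjusted p = 0.0113) and 16 h (0.00449), MtnC late (4.13e-05), and Ctr1A over time (0.0185) and late minus early (0.000218). Quantile normalization gave 2 metal genes for line, a pseudocount of 32 gave Ctr1B -1.49 late, and a filter of 7 gave 51 probe sets at 32 h and 647 for line (90 and 1000 otherwise).

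Within replicate 1 arrays Ctr1B late was -3.28, and MtnB turned at 2 h (0.50), 4 h (0.98), early (0.089) and for line (0.14), Ctr1B for untreated line (-0.28) and late line (0.48), and MtnA for late line (-0.20). Within replicate 2 arrays Ctr1B late was -1.37, and Ctr1B turned at 0.25 h (0.33), 1 h (0.57), 2 h (0.83), 4 h (0.27) and early (0.58), MtnA at 1 h (-0.58) and early (-0.71), and MTF-1 for line (-0.00226). The dimmer MTF-1 probe set turned early (-0.054) and late minus early (0.028).

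Leaving out 1 array at a time, Ctr1B ranged from -3.08 to -1.57 late, -1.22 to 0.29 early, -1.12 to 0.39 at 0.25 h, -1.25 to 0.26 at 1 h, -1.28 to 0.23 at 2 h, -1.44 to 0.072 at 4 h, 0.16 to 0.50 for line, -0.71 to 2.31 for untreated line and -2.05 to 0.97 for late line. MtnA ranged from -0.33 to 0.46 at 1 h and -0.21 to 0.37 early, MtnB from -0.99 to 0.27 at 2 h and -0.64 to 0.56 at 4 h, Ctr1A from -0.068 to 0.27 early and -0.59 to 0.10 for late line, and MTF-1 from -0.022 to 0.066 early and -0.12 to 0.060 for late line. Metal genes called ranged from 2 to 4 late and 1 to 2 for line. The late call of Zip89B was also lost with quantile normalization (adjusted p = 0.0816), intensities under 32 set to 32 (0.0521) and a pseudocount of 32 (0.0581), and its late minus early call (0.0355) was lost with 13 of 36 arrays left out in turn. The cause was not tested.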

Other observations

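The 2 arrays of a group often departed from each other in the same direction for metallothioneins. Over the 18 groups, replicate 1 minus replicate 2 differences of MtnA and MtnB had r = 0.73 and those of MtnB and MtnC 0.78, while those of MtnA and Ctr1B had r = -0.41. These describe arrays that share RNA between genes and carry no test.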
